A study of Drosophila melanogaster with 4 samples.

Results

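Chromatin accessibility was mapped at 7 genes that encode transcription factors of flight muscle fate in Drosophila melanogaster: salm, salr, exd, hth, Mef2, vg and sd. The members were chosen by name, and each window was the gene's span in a release 6 annotation plus 10 kb on each side. The 7 genes, of 17684 annotated on the main chromosome arms, held 137 of the 44429 regions with a called peak, and each gene window had at least 1 peak in every library. The assay was ATAC-seq, which marks open chromatin by where a transposase can insert sequencing adapters, on nuclei of thoracic muscle enriched for flight muscle from pharate animals (adults formed inside the pupal case) 96 h after pupa formation at 25 °C.

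The mutant carried an allele of Pgk, the gene for the glycolytic enzyme phosphoglycerate kinase, in which the E2F binding site upstream of the gene was mutated (w[1118];Pgk[Delta.E2F]; +, line 12), with 2 libraries, and the control was w[1118], with 2 libraries. Both genotypes thus carry the w[1118] allele, and the mutant is 1 line. At least 40 pharate animals were staged for each library, so each is a pool of animals. The labels do not say whether the 2 libraries of a genotype came from separate crosses or days, so the spread between them may be technical.

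In the insect thorax, fibrillar indirect flight muscle is set apart from tubular muscle by a hierarchy of transcription factors. Extradenticle (exd) and Homothorax (hth), homeodomain proteins related to vertebrate Pbx and Meis, act early, and Hth brings Exd into the nucleus. Spalt major (salm), a zinc finger protein, acts below them as the selector of the fibrillar type, and spalt-related (salr) is its neighbouring paralogue. Mef2, a MADS-box factor, activates structural genes in all muscle types. Vestigial (vg) has no DNA-binding domain of its own and works through Scalloped (sd), a TEAD factor; this pair acts in wing and flight muscle development.

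On the main arms the lists held 25528 and 25985 peaks in mutants 1 and 2, and 29341 and 29923 peaks in controls 1 and 2. The local background recovered from the peak values, which stands for depth here, was 4.62 and 5.26 fragments in mutants 1 and 2, against 7.44 and 7.61 fragments in controls 1 and 2. Depth therefore moved with genotype, and its part in each difference of counts below cannot be told apart from genotype in lists as deposited. Counts are therefore also given from equal-length lists, which keep the top 25528 peaks of every library by −log10 p, and from background-scaled lists, which keep the peaks that would still be called at the recovered background of mutant 1. The background-scaled lists still held 25528 and 25959 peaks in the mutants, against 27656 and 27860 in the controls. Of 10 muscle marker genes, 8 had a peak within 500 bp of a gene end in all 4 libraries. The same held for 1 of 5 neuronal genes (elav), 1 of 4 hemocyte genes (srp), 2 of 3 fat body genes, 0 of 2 tracheal genes, 1 of 2 tendon genes and both epidermal genes. The matching share over all protein-coding genes is not given here, so these counts do not show how far the nuclei were enriched for muscle. An open gene end is not expression, and the part of other cell types in the values below was not tested.

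Over the 7 windows 74 and 80 peaks were called in mutants 1 and 2, against 100 and 93 in controls 1 and 2. The mean was 77.0 ± 4.24 in the mutants and 96.5 ± 4.95 in the controls (SD, n = 2 each), a difference of -19.5 peaks. The groups did not overlap (two-sided exact permutation test, p = 0.333, the smallest value that 2 against 2 allows). As a share of the control mean, the mutants had 79.8% in these windows and 86.9% over all main arms. The difference was -10.0 peaks with equal-length lists and -14.0 peaks with background-scaled lists.

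Of this difference, -12.0 peaks lay at hth. Without hth, the windows held 57 and 64 peaks in the mutants, against 73 and 63 in the controls, and the groups overlapped. Peaks inside the gene spans made up 74.3% and 70.0% of the peaks in the mutants, against 72.0% and 72.0% in the controls, so the mean intragenic share differed by 0.141 percentage points (exact permutation test, two-sided, p = 1). The sign of that difference turned under several settings, and without mutant 1 it was -2.02 points.

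**Figure D1:**
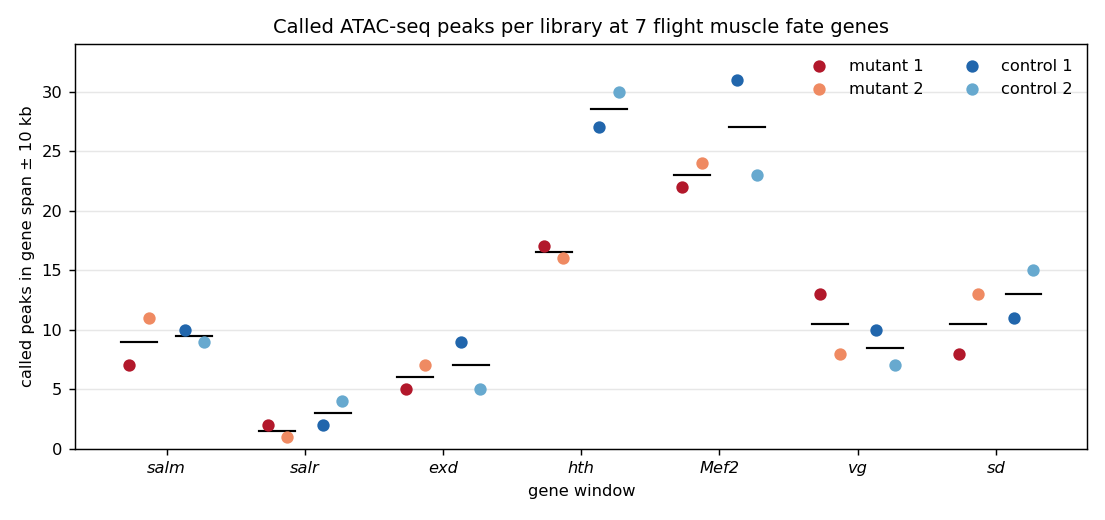
Called peaks in each gene window (gene span plus 10 kb on each side) for the 4 libraries; points are libraries and black lines are the means of each genotype. In these lists as deposited, hth is the window where both mutants (17 and 16 peaks) lie below both controls (27 and 30 peaks), against 25.5% of all windows. At −log10 q of at least 5 the groups also separate at salm, exd and Mef2, against 31.5% of all windows.

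The density of called peaks ordered the genes as follows. Mef2 had the most, with 0.382 peaks per kb of window averaged over the 4 libraries (range 0.337 to 0.474), above 80.7% of 13922 protein-coding genes. Next came salm with 0.295 (0.224 to 0.351), sd with 0.271 (0.185 to 0.346), exd with 0.270 (0.208 to 0.374) and vg with 0.270 (0.199 to 0.369) peaks per kb. The ranges of these 4 genes overlapped each other and that of Mef2. The large gene hth had 0.148 (0.105 to 0.197), and salr had 0.0647 (0.0288 to 0.115), above only 10.2% of genes. The ranges of hth and salr overlapped each other. The range of salr lay below those of the other 5 genes, and that of hth overlapped, of those 5, only that of sd. The median gene had 0.259 peaks per kb. The order changed with the measure. By base pairs covered per kb, Mef2 lay above 91.5% of genes, vg above 82.1%, sd above 75.9% and salm above 75.6%. Below them were hth, above 46.1% of genes, exd, above 32.7%, and salr, above 18.2%.

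Hth, the Meis-type partner that controls the localisation of Exd, is encoded by a gene of 132008 bp on 3R (3R:10507561-10639568). Its window held 17 and 16 peaks in mutants 1 and 2, against 27 and 30 peaks in controls 1 and 2. Both mutants lay below both controls, a difference of -12.0 peaks (exact permutation test, two-sided, p = 0.333). In the lists as deposited, this was the only one of the 7 windows in which both mutants had fewer peaks than both controls, against 25.5% of all 13667 protein-coding windows with a peak; no member had more peaks in both mutants, against 3.61%. With equal-length lists hth was again the 1 window with fewer (background 11.9%) and none had more (background 9.80%). With background-scaled lists the counts were the same, against 18.7% and 6.12%. The count rests on the peak threshold: with −log10 q of at least 5, salm, exd and Mef2 separated as well, so that 4 of 7 windows had fewer peaks in both mutants, against 31.5% of all windows. With flanks of 20000 bp hth and sd separated, 2 of 7, also against 31.5%. Long windows hold more peaks and separate more often: among 241 windows with a mean of at least 20 peaks the share was 31.1%. The median mutant share of the control mean was 93.2% over those windows, and the 57.9% of hth was the lowest. The share at hth was 71.7% with equal-length lists, where 3 of 199 such windows lay at or below it (hth itself, with a mean just under 20 peaks, was not among the 199). It was 66.0% with background-scaled lists, where 3 of 220 windows did, hth among them.

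The difference at hth was not of equal size along the gene, which was not tested further. Divided into 3 segments of equal length from the lower-coordinate end, the gene had 3 and 4 peaks in the mutants, against 7 and 7 in the controls, in the first 44.0 kb. The middle segment had 6 and 3 peaks in the mutants, against 11 and 11 in the controls. The last segment, which holds the strongest peaks, had 8 and 9 peaks in the mutants, against 9 and 9 in the controls. No peak was called in any library in the final 17095 bp of the span (3R:10622474-10639568), which includes the higher-coordinate end of the gene.

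**Figure D2:**
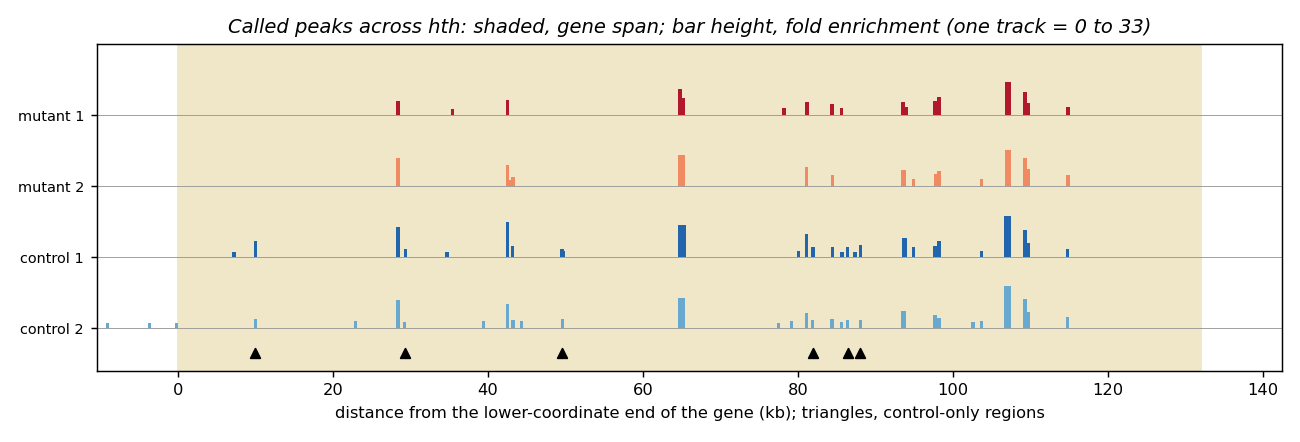
Called peaks across hth in the 4 libraries, by distance in kb from the lower-coordinate end of the gene; the span is shaded, bar height is the authors' fold enrichment, and triangles mark regions called in both controls and no mutant. All 6 triangles lie below 90 kb, while the strongest peaks, near 107 kb, are present in all 4 libraries.

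Overlapping peaks of the 4 lists (1 bp or more) formed a merged region. Of the 38 merged regions at hth, 6 were control-only, that is, called in both controls and no mutant (15.8%, against a background of 5.93% of all merged regions), and 0 were mutant-only (background 1.76%). They were 3R:10517357-10517686, 3R:10536765-10536998, 3R:10556964-10557352, 3R:10589423-10589520, 3R:10593893-10594065 and 3R:10595518-10595668, all inside the gene. Their fold enrichments ran from 3.79 to 7.46 in control 1 and from 2.79 to 4.41 in control 2. The first of them had the best mean rank, with summit pileups of 62 and 34 fragments in controls 1 and 2. The count was 5 with equal-length lists and 6 with background-scaled lists.

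The regions of hth that all 4 libraries shared numbered 12. The best ranked was 3R:10614204-10614992, about 107 kb into the gene, with fold enrichments of 15.7 and 16.9 in the mutants, against 19.1 and 19.6 in the controls; a fold enrichment is the authors' value against the background of its own library. Its peak stood in the top 1.13% and 0.722% of the lists of mutants 1 and 2, against the top 0.347% and 0.318% in controls 1 and 2. A region of 910 bp in the middle of the gene, 3R:10572133-10573042, had fold enrichments of 12.0 and 14.8 in the mutants, against 15.0 and 14.3 in the controls. The mean ranks of the 12 shared regions ran from 0.629% to 51.3% of the list, and those of the 6 control-only regions from 37.9% to 75.2%, so the best-ranked sites of hth were called in both genotypes.

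Exd, the Pbx-type partner of Hth, is encoded by a short gene on X (X:15992468-15996509). Its window held 5 and 7 peaks in mutants 1 and 2, against 9 and 5 peaks in controls 1 and 2, which overlapped (difference -1.0 peaks, exact permutation test, two-sided, p = 1; without control 1 it was 1.0 and without mutant 1 it was 0). With −log10 q of at least 5 the window held 3 and 4 peaks in the mutants, against 9 and 5 in the controls, which did not overlap (difference -3.5 peaks, exact permutation p = 0.333). At that threshold 31.5% of all windows had fewer peaks in both mutants. Only 2 of the 11 regions lay inside exd, and neither was called in all 4 libraries. Of the 9 flanking regions, 7 lay within 500 bp of an end of a neighbouring gene. The best-ranked shared region, X:15996932-15997054, lay outside exd, within 500 bp of its higher-coordinate end. It overlapped the neighbouring gene CG8939, within 500 bp of an end of that gene. The fold enrichments of this region were 9.42 and 11.0 in the mutants, against 14.8 and 10.3 in the controls. Peaks at such close genes cannot be assigned to either by position alone. The single mutant-only region, X:15994018-15994180, was inside exd and weak, with 15 and 17 fragments at its summit in mutants 1 and 2 and fold enrichments of 2.85 and 2.87.

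At salm, the selector gene of the fibrillar type (2L:11434311-11445614), the window held 7 and 11 peaks in mutants 1 and 2, against 10 and 9 peaks in controls 1 and 2, which overlapped (difference -0.5 peaks, exact permutation test, two-sided, p = 1; 1.5 without mutant 1). With −log10 q of at least 5 it held 4 and 5 peaks in the mutants, against 8 and 7 in the controls, which did not overlap (difference -3.0 peaks, exact permutation p = 0.333). At that threshold 31.5% of all windows had fewer peaks in both mutants. The strongest region, 2L:11445360-11445940, spanned the higher-coordinate end of the gene. Its fold enrichments were 19.4 and 18.6 in the mutants, against 20.7 and 22.2 in the controls. It stood in the top 1.18% and 1.42% of the mutant lists as deposited and the top 1.07% and 0.679% of the control lists. In equal-length lists the ranks of the genotypes overlapped, with mutant 1 between the controls. The 4 summits of this region lay within 21 bp of each other. A further shared region, 2L:11447682-11448092, lay outside the gene within 500 bp of an end of lncRNA:CR46454, with fold enrichments of 7.29 and 11.3 in the mutants, against 9.94 and 11.3 in the controls.

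Inside salm and away from that end no call exceeded a fold enrichment of 4.71. The gene had 1 control-only region, 2L:11438037-11438172, with fold enrichments of 3.19 and 2.69 in controls 1 and 2. It also had 1 mutant-only region, 2L:11436858-11437020, with 2.66 and 2.77 in mutants 1 and 2. The region 2L:11440733-11440977 was called in mutant 2 and both controls, with 31 fragments at its summit in mutant 2 and 69 and 62 in the controls, and was not called in mutant 1.

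The paralogue salr (2L:11358873-11373636) was nearly bare. It had 2 and 1 peaks in mutants 1 and 2, against 2 and 4 peaks in controls 1 and 2, all of them overlapping the gene, and none in either flank. The difference was -1.5 peaks (exact permutation test, two-sided, p = 0.667). A single region, 2L:11358582-11359052, which overlapped the lower-coordinate end, was called in all 4 libraries, with fold enrichments of 11.2 and 19.5 in the mutants, against 28.1 and 19.7 in the controls. All 4 libraries had the summit of this region at the same base. In the rest of the gene, 14584 bp had no region shared by all libraries, while the longest such stretch of the salm span was 6804 bp. The window of salm, flanks included, had 4 shared regions. The 28.1 in control 1 was the highest fold enrichment of any shared region at the 7 genes.

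Mef2, the general muscle activator (2R:9913496-9958858), had 22 and 24 peaks in mutants 1 and 2, against 31 and 23 peaks in controls 1 and 2. The groups overlapped (difference -4.0 peaks, exact permutation test, two-sided, p = 0.667), and the difference was 0 without control 1 and -8.0 without control 2, where the groups separated. With −log10 q of at least 5 the window held 17 and 21 peaks in the mutants, against 25 and 22 in the controls, which did not overlap (difference -4.5 peaks, exact permutation p = 0.333). At that threshold 31.5% of all windows had fewer peaks in both mutants. Of the 36 regions at Mef2, 13 were called in all 4 libraries, the most at any of the 7 genes. The best ranked, 2R:9929376-9929971, lay inside the gene, 16.2 kb from its lower-coordinate end, with fold enrichments of 24.9 and 20.3 in the mutants, against 25.1 and 23.0 in the controls. It stood in the top 0.412% and 0.833% of the mutant lists as deposited and the top 0.145% and 0.344% of the control lists. This was the best mean rank of all shared regions at the 7 genes. In equal-length lists its ranks overlapped, with 0.364% and 0.795% in mutants 1 and 2, against 0.129% and 0.368% in controls 1 and 2. A group of 4 shared regions followed between 22.8 and 26.8 kb, of which 2R:9937710-9938504 was 795 bp wide. The higher-coordinate end of the gene was covered by 2R:9958324-9958944, with fold enrichments of 9.67 and 13.4 in the mutants, against 15.5 and 14.9 in the controls. The 2 control-only regions of the window, 2R:9903898-9904174 and 2R:9960385-9960472, were both outside the gene, with fold enrichments of 3.14 to 3.58 in the controls, and 0 regions were mutant-only.

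Of the Vestigial-Scalloped pair, vg (2R:12884201-12899385) had 13 and 8 peaks in mutants 1 and 2, against 10 and 7 peaks in controls 1 and 2. This was the only window with a higher mutant mean, by 2.0 peaks, and the groups overlapped (exact permutation test, two-sided, p = 0.667; -0.5 without mutant 1). Of its 6 shared regions, 4 lay inside the gene. The 3 with the best ranks lay near the lower-coordinate end (2R:12884426-12884838), 11.3 kb from that end (2R:12895262-12895831) and outside the gene at lncRNA:CR46336 and lncRNA:CR46337 (2R:12904212-12904832). The region at 11.3 kb had fold enrichments of 11.2 and 15.1 in the mutants, against 20.5 and 17.1 in the controls. The gene held 1 mutant-only region, 2R:12887068-12887198, with 23 and 20 fragments at its summit in mutants 1 and 2, and 1 control-only region, 2R:12893957-12894182, with 79 and 43 in controls 1 and 2.

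The gene of its DNA-binding partner, sd (X:15804370-15827682), had 8 and 13 peaks in mutants 1 and 2, against 11 and 15 peaks in controls 1 and 2, which overlapped (difference -2.5 peaks, exact permutation test, two-sided, p = 0.667; 0 without mutant 1). With flanks of 20000 bp the counts were 14 and 15 in the mutants, against 17 and 20 in the controls, which did not overlap (difference -4.0 peaks, exact permutation p = 0.333). With such flanks 31.5% of all windows had fewer peaks in both mutants. The best-ranked region of sd, X:15811631-15812529, lay 7.7 kb into the gene, with fold enrichments of 11.0 and 17.0 in the mutants, against 16.5 and 14.3 in the controls. The single control-only region, X:15812731-15812863, lay just beside it, with fold enrichments of 4.16 and 3.93 in the controls. Inside the gene span 4 and 5 peaks were called in the mutants, against 5 and 7 in the controls.

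**Figure D3:**
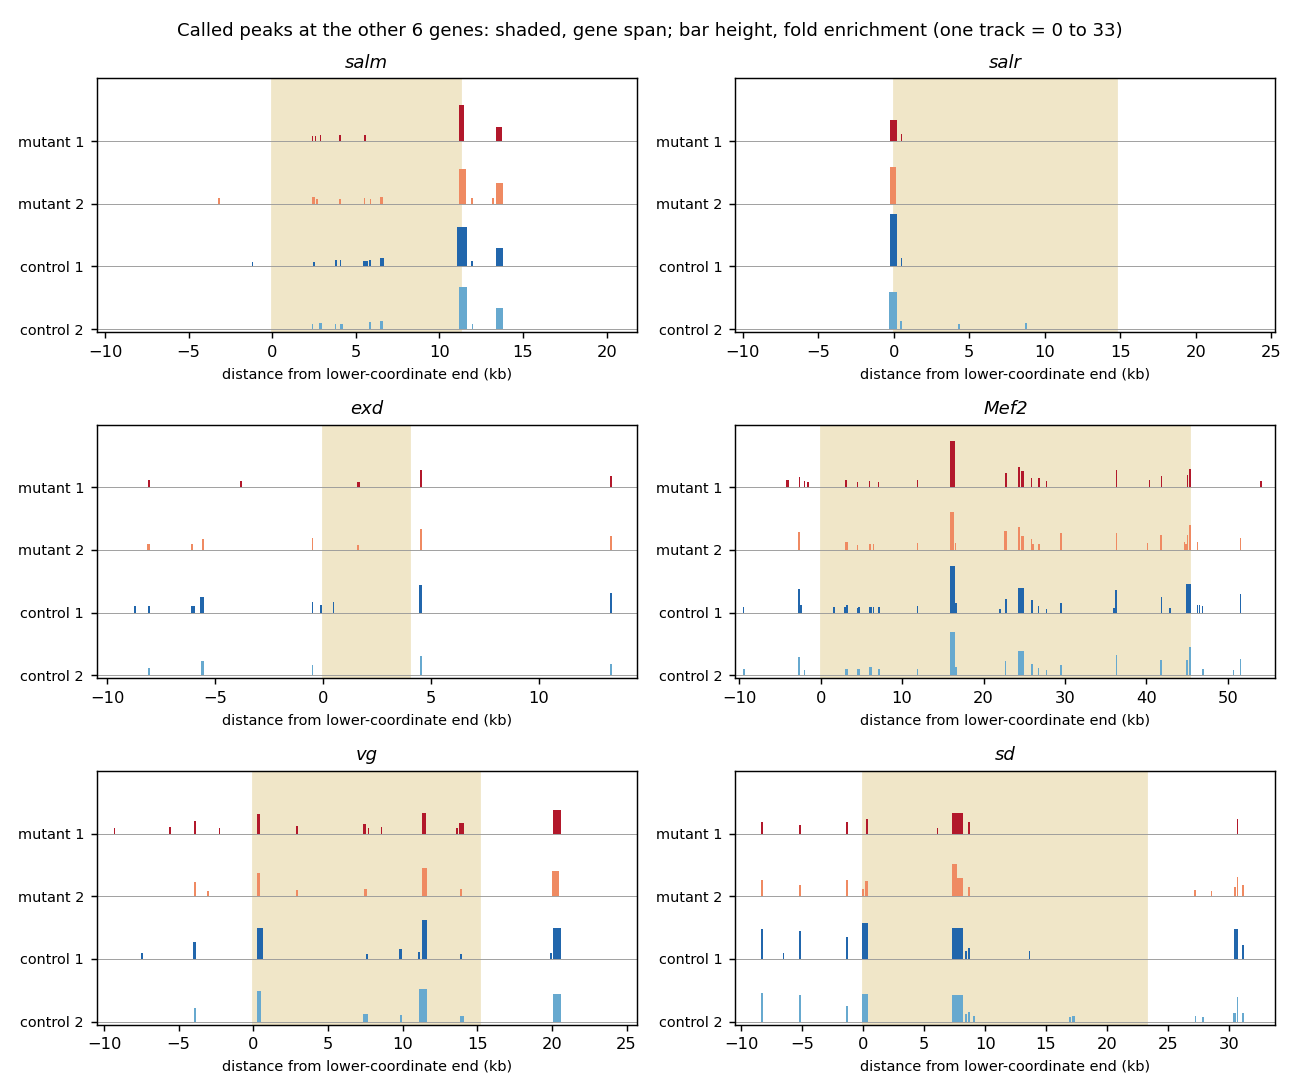
Called peaks at salm, salr, exd, Mef2, vg and sd in the 4 libraries, by distance in kb from the lower-coordinate end of each gene; the span is shaded and bar height is the authors' fold enrichment. The best-ranked shared site stands at an end of salm and of salr and inside Mef2, vg and sd, further strong sites stand in and beside vg and sd, and the span of exd holds no site shared by all libraries.

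Over the 7 windows 46 of 137 regions (33.6%) were called in all 4 libraries, against a background of 30.3%. Control-only regions numbered 11 (8.03%, background 5.93%) and mutant-only regions 3 (2.19%, background 1.76%). Without hth the counts were 5 control-only and 3 mutant-only of 99 regions, so that the share of control-only regions was 5.05%, against 5.93%. With equal-length lists 11 and 3 regions were counted over the 7 windows, against backgrounds of 4.49% and 2.65%. With background-scaled lists the counts were again 11 and 3, against 5.28% and 2.11%. Pairs of 1 mutant and 1 control alone shared 7 regions (5.11%, against 9.50% over all main arms). Of the 16 regions called in 3 libraries, 68.8% lacked the call in mutant 1 and 25.0% in mutant 2, against 59.0% and 21.0% over all main arms.

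**Figure D4:**
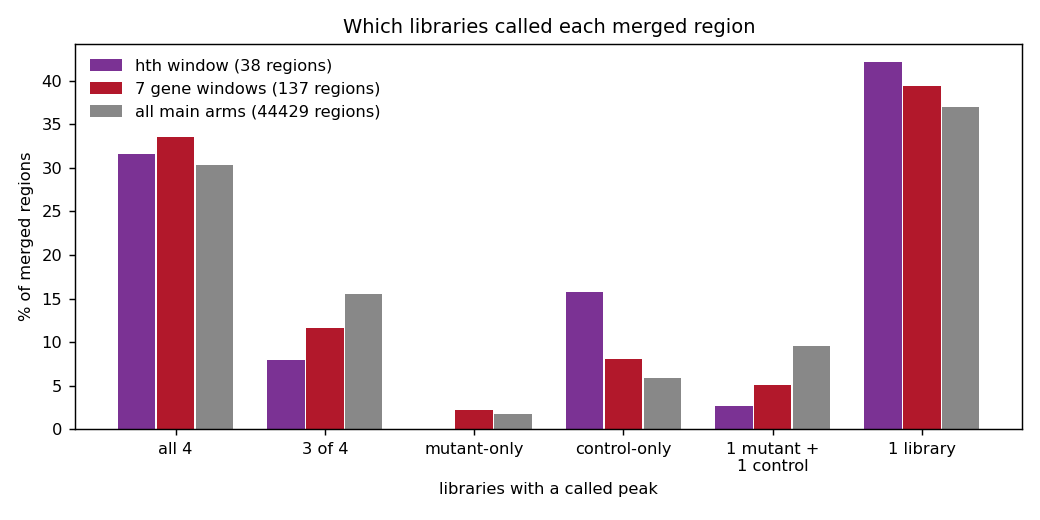
Share of merged regions by the libraries that called them, for the hth window, the 7 gene windows together and all main arms. At hth 15.8% of regions were control-only and 0 were mutant-only, against 5.93% and 1.76% over all main arms.

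The patterns were also counted by position. The positional backgrounds count pairs of a region and a protein-coding gene window, so a region near several genes was counted more than once. Within 500 bp of an end of a member gene lay 11 regions, of which 6 were shared by all libraries (54.5%, against 37.5% at the ends of all protein-coding genes) and neither pattern of a single genotype occurred (against 6.28% control-only and 1.02% mutant-only). Inside the genes and away from their ends, 84 regions were found, 30 of them shared (35.7%, against 25.5% in all protein-coding genes), 9 control-only (10.7%, against 5.98%) and 3 mutant-only (3.57%, against 1.99%). Of those 9 control-only regions 6 were at hth. Flanking regions at an end of another gene were shared in 8 of 23 cases (34.8%, against 34.9%), and other flanking regions in 2 of 19 (10.5%, against 21.1%). Where all 4 libraries called a region, the strongest summits lay within 50 bp of each other in 33 of 46 regions (71.7%), against 65.8% of all shared regions. Shared regions of the 7 genes had a median fold enrichment of 8.52, against 5.69 over all shared regions, and a median width of 302 bp, against 235 bp.

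Ranks in equal-length lists allowed the strength of shared regions to be set side by side. Of 44 regions of the 7 genes that were ranked in all 4 lists, 12 ranked better in both controls than in either mutant (background 22.0%), and 4 ranked better in both mutants (background 21.5%). Ranked by fold enrichment in place of −log10 p, an alternative added after the data were seen, the counts were 7 and 9 of 43 (backgrounds 19.0% and 22.1%), so the order of these 2 counts rests on the measure. In the window of sd, 4 of 7 ranked regions were better in both controls and 0 in both mutants by −log10 p, and 4 were better in both controls by fold enrichment. Of these 4, only X:15804275-15804785 overlapped sd. The others, among them X:15834726-15835125 at Chc, lay in the flanks, within 500 bp of ends of other genes.

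The widest separations of rank at the 7 genes lay next to sd. The region X:15799125-15799265, 5.2 kb outside sd and within 500 bp of ends of sordd2 and CG15602, ranked in the top 44.2% and 37.7% of the equal-length lists of mutants 1 and 2, against the top 7.08% and 7.65% of those of controls 1 and 2. By the ratio of the best mutant rank to the worst control rank, 4.93, it was number 2 of the 2830 regions with better ranks in both controls. The region X:15795994-15796131, within 500 bp of ends of sordd1 and CR44383, ranked in the top 21.5% and 19.0% in the mutants, against 6.52% and 6.64% in the controls, and was number 6. The summit pileups at X:15799125-15799265 were 24 and 35 fragments in mutants 1 and 2, against 156 and 129 fragments in controls 1 and 2, and the recovered background was 4.62 and 5.26, against 7.44 and 7.61. Ranked by fold enrichment, these regions were numbers 2 and 10 of 2409.

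The end of sd itself followed the same order. The region X:15804275-15804785, which overlaps the lower-coordinate end of sd and lies within 500 bp of PGRP-LE, ranked in the top 14.1% and 21.7% in the mutants, against 5.11% and 7.81% in the controls (number 145 of 2830). Between it and the outer ones, X:15802976-15803101, in PGRP-LE, overlapped in rank, with 24.0% and 19.0% in the mutants, against 12.5% and 20.7% in the controls. The intragenic site X:15811631-15812529 overlapped as well, with 5.17% and 2.33% in the mutants, against 2.48% and 3.81% in the controls. An exact permutation test of a single region could not fall below p = 0.333 in this design. Some of these regions were named after their values were seen.

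**Figure D5:**
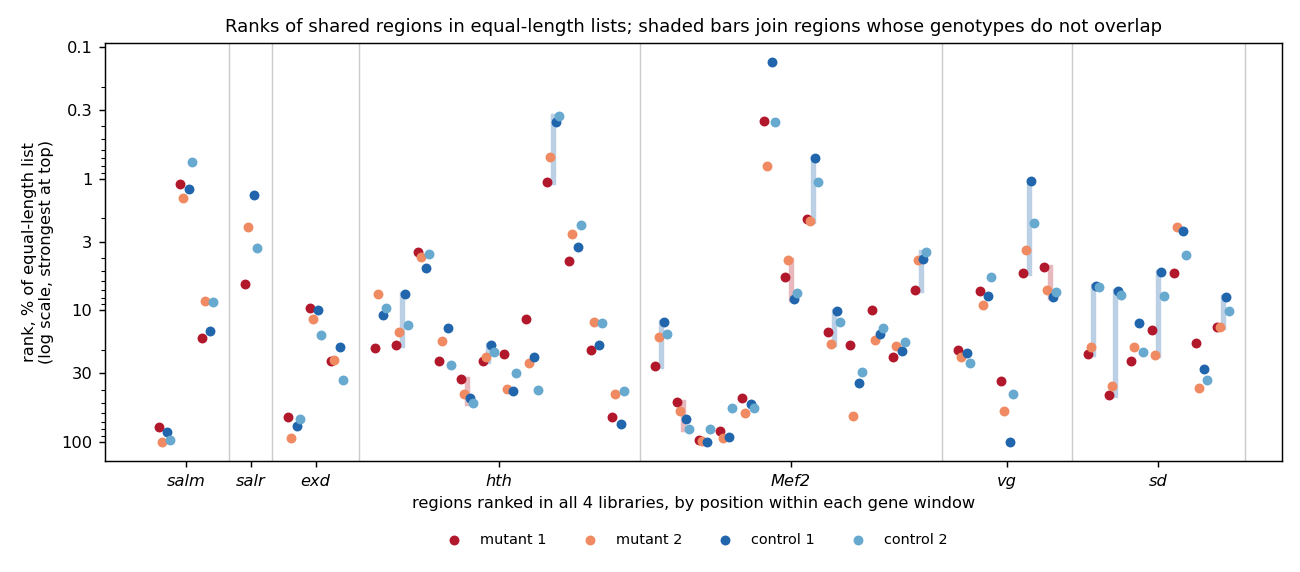
Rank of each region called in all 4 equal-length lists, as a percentage of the list on a log scale with the strongest at the top; points are libraries, mutants left of controls, and shaded bars mark regions whose genotypes do not overlap (blue, better in both controls; red, better in both mutants). The first regions of sd show the widest separation, with mutants at 37.7% and 44.2% and controls at 7.08% and 7.65% in the second of them.

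Other genes of thoracic muscle were counted in the same windows. Of 12 further regulators of adult thoracic muscle fate, 7 had fewer peaks in both mutants than in both controls and 0 had more, against 25.5% and 3.61% of all windows, with a median mutant share of 80.6% of the control mean, against 85.7% over all windows and 85.2% over the 7 members. Control-only regions lay in the windows of 7 of the 12, for which the share over all windows is not given here. These regions numbered 16 of 182 (8.79%, background 5.93%), and mutant-only regions numbered 0 (background 1.76%). They were at Notch (N), the receptor of that pathway, with 7 and 11 peaks in the mutants, against 16 and 15 in the controls, and at the homeobox genes cut (ct), with 8 and 9, against 17 and 13, and apterous (ap), with 6 and 4, against 10 and 11. The erect wing gene (ewg), which encodes a flight muscle transcription factor, had 1 and 2 peaks in the mutants, against 3 and 3 in the controls. The zinc finger gene zfh1 had 17 and 15 peaks in the mutants, against 19 and 19 in the controls. The splicing regulator of fibrillar muscle aret had 16 and 13 in the mutants, against 22 and 24 in the controls. The FGF pathway adaptor gene stumps had 14 and 14 peaks in the mutants, against 15 and 14 in the controls, which overlapped.

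Of 15 structural genes of flight muscle, 8 had fewer peaks in both mutants and 1 had more, against 25.5% and 3.61% of all windows. Their median mutant share was 85.7%, the same as over all windows. Control-only regions numbered 26 of 355 (7.32%, background 5.93%) and mutant-only regions 5 (1.41%, background 1.76%). The gene with more peaks was Act88F, the flight muscle actin, with 8 and 8 peaks in the mutants, against 5 and 5 in the controls. TpnC4, a flight muscle troponin C, had 1 and 1 peaks in the mutants, against 5 and 4 in the controls, and the Z-disc gene Zasp52 had 25 and 25, against 41 and 34. Strn-Mlck had 24 and 25 peaks in the mutants, against 26 and 27 in the controls. The counts were 7 and 6 against 13 and 9 at up, and 4 and 3 against 7 and 8 at bt. At Unc-89 they were 9 and 10 against 16 and 13. The groups overlapped at Zasp66 (13 and 16 against 17 and 15), sls (18 and 22 against 27 and 22) and Tm1 (29 and 28 against 36 and 26). Both tubular muscle genes overlapped between genotypes; Act79B, a tubular muscle actin, had 8 and 4 peaks in the mutants, against 5 and 7 in the controls, and held the only control-only region of that list. These lists were chosen with earlier results of the data known, and their counts come from the lists as deposited alone.

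Among 13873 protein-coding genes whose windows share no base with a member window, the gene most like hth in base pairs covered by peaks per kb over the 4 libraries was Timp, at a Euclidean distance of 1.55. It had 25.3 and 29.2 bp per kb in the mutants, against 42.2 and 44.9 in the controls, where hth had 25.0 and 29.8, against 42.6 and 43.6. The nearest genes to the other members were Trm1 for salm, CG3081 for salr, CG11436 for exd, CG34220 for Mef2, EndoB for vg and Svip for sd, at distances of 1.05 to 4.17. Over the 7 windows together 13996 and 15544 bp were covered in the mutants, against 21028 and 20382 bp in the controls, a difference of -5935 bp (exact permutation test, two-sided, p = 0.333). Both mutants lay below both controls in covered length at salm, salr, hth, Mef2 and sd, 5 of 7 windows, against 59.2% of all windows, and above both in 0, against 2.22%.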

How the data were processed

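The authors deposited 1 list of peaks per library with 10 columns and no header, so replicates were not pooled. Per the submitters' processing notes, the tools were bcl2fastq 2.20, MultiQC 1.5, cutadapt 2.3, Bowtie2 2.4.1, Picard and MACS2 2.2.7.1, with build BDGP6; settings, duplicate handling and read shifts are not given in the sources used here. The deposited fold enrichment (a ratio) and −log10 p and −log10 q are the authors' values against each library's own background; the deposited score, and the summit offset, restate or locate them, and the score was not used. Positions count from 1. Gene spans came from a RefSeq table of Release 6 without strand, so gene ends are named by coordinate.

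Peaks on 2L, 2R, 3L, 3R, 4 and X were counted where they overlapped a window, and joined into regions at 1 bp of overlap (Python 3.11.15, pandas 2.3.3, SciPy 1.17.1). Group means were compared by exact permutation over 6 labelings, which cannot go below p = 0.333. Summit pileup and local background were solved from fold enrichment and −log10 p under a Poisson model wherever −log10 p did not exceed 250, which was 98.7% to 99.8% of a list (misfit at most 0.000896); the most frequent background stood for depth. Background-scaled lists kept peaks that would pass at the background of mutant 1, which equalises that 1 statistic and not list length. Read depth itself is not in the lists, and region counts carry no counting interval. Region patterns, window counts and pileup recovery were tested on simulated data, and the other steps were not. The members, lists and alternatives were chosen with earlier results of these data known. Named were the 7 members, their best-ranked shared, control-only and mutant-only regions, listed genes with such regions, and the most alike gene of each member; regions beyond these were chosen after their values were seen. No sequence was used here.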

Additional observations from a re-analysis of the deposited data

How the results depend on the processing

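Over 188 alternative values, 152 kept their direction or stayed within 1.5 times the count. These include the differences blocked by replicate number, which equal the unpaired ones by construction and could not change direction. At hth the difference stayed between -13.5 and -6.5 peaks in every setting tried, and that over the 7 windows between -23.0 and -10.0 peaks. The intragenic share differed by 0.141 points as reported, and by -2.40 points with −log10 q of at least 3, -0.984 with background-scaled lists, -0.491 and -0.517 with flanks of 5000 and 20000 bp and -1.77 with summits in the window. The salm difference was 0 with equal-length or background-scaled lists. With −log10 q of at least 5 it was -3.0, that of exd -3.5 and that of Mef2 -4.5. In each the groups did not overlap, with fewer peaks in both mutants, as in 31.5% of all protein-coding windows with a peak. With flanks of 20000 bp the salr difference was 0 and the vg difference -1.5; for exd it was 0 with flanks of 5000 bp and 0.5 with none. Mutant-only regions numbered 1 with −log10 q of at least 3, 0 with at least 5 and 6 with flanks of 20000 bp. Ranked by fold enrichment, 7 of 43 shared regions were better in both controls (background 19.0%) and 9 in both mutants (background 22.1%). The cause of these shifts was not tested.

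With 1 library left out, the differences ranged from -23.0 to -16.0 peaks over the 7 windows, from -6709 to -5161 bp, from -2.02 to 2.3 points of intragenic share, from -2.5 to 1.5 peaks at salm, -2.5 to -0.5 at salr, -3.0 to 1.0 at exd, -13.5 to -10.5 at hth, -8.0 to 0 at Mef2, -0.5 to 4.5 at vg and -5.0 to 0 at sd. Control-only regions ranged from 15 to 33, mutant-only regions from 3 to 16, regions called in all remaining libraries from 47 to 57, and regions ranked better in both controls from 17 to 28 and in both mutants from 9 to 17; these counts rise by construction, since fewer libraries must agree.

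Blocking by replicate number gave differences equal to the unpaired ones (-19.5 peaks, -5935 bp), with p = 0.5 in an exact sign-flip permutation test, the smallest that 2 pairs allow. Deviations of same-numbered libraries from their group means correlated at -0.0960 over 44429 regions, and the numbers were therefore not taken as pairs. Regions called only in mutant 1 and control 1 numbered 594, and only in mutant 2 and control 2, 760. Those called only in mutant 1 and control 2 numbered 1583, and only in mutant 2 and control 1, 1284. The cause of this crossed pattern was not tested. With no flank every peak is intragenic, so that share gave no value. List length and recovered background moved with genotype, and at 2 libraries a genotype their part cannot be told apart from it.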

Other observations

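The uncalled stretches of the 7 genes differed widely. The longest stretch of a gene span with no peak in any library was 17095 bp at hth, 6379 bp at Mef2, 5984 bp at salr, 5957 bp at sd, 4382 bp at salm, 4345 bp at vg and 2329 bp at exd. It made up 57.6% of the span of exd, 40.5% of that of salr and 38.8% of that of salm, but 14.1% of that of Mef2 and 12.9% of that of hth. At salr, exd, hth and sd this stretch reached the higher-coordinate end of the gene.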
